A study of Komagataella phaffii GS115 with 9 samples.

Results

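KAR2 and HAC1 encode a chaperone of the endoplasmic reticulum (ER) and a transcription factor that regulates ER folding genes. Their mRNA levels were followed in 3 groups of *P. pastoris* (syn. *Komagataella phaffii*) cultures. Both were chosen by locus tag, gene-PP7435_CHR2-1167 on chromosome 2 for KAR2 and gene-PP7435_CHR1-0700 on chromosome 1 for HAC1, and they are 2 of the 5557 features in the table. The table lists locus tags without gene names. The names KAR2 and HAC1 were given together with the tags, and their pairing could not be checked against the reference table. That reference covers GS115, the strain named for this study, but holds neither these tags nor these names.

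KAR2 encodes the Hsp70 chaperone of the ER lumen (BiP), which binds nascent and unfolded proteins and takes part in their import into the ER. HAC1 encodes the transcription factor of the unfolded protein response (UPR). In *S. cerevisiae*, unfolded proteins in the ER activate the kinase and nuclease Ire1, which removes an intron from HAC1 mRNA, and the Hac1 protein made from the spliced mRNA activates genes of ER folding, KAR2 among them. Both genes are often overexpressed in *P. pastoris* to help the secretion of heterologous proteins. The table gives one value per gene, so that spliced and unspliced HAC1 mRNA are not told apart.

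RNA of 9 cultures was sequenced after 60 h of flask fermentation with methanol induction, with 3 biological replicates per group. G14_37 is the mutant with cross-tolerance to oxidative and thermal stress, induced at 37 °C, G14_28 is the same mutant induced at 28 °C, and Parent_28 is its parent induced at 28 °C. The mutant came from the parent by adaptive laboratory evolution and is 1 evolved line. Strains of all 3 groups carry a lipase gene, RCL, under the methanol-inducible *AOX1* promoter. No parent culture at 37 °C was analysed here, so the effect of temperature was measured in the mutant only. Whole cultures were sampled, and fewer cells with a transcript and less of it per cell cannot be told apart.

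The values have the form of FPKM, that is, read numbers corrected for the length of the gene and for the size of the library. Of the 49103 values above 0, 99.96% could be turned back into whole reads, and the libraries held between 12610584 and 15193820 reads. The recovered gene lengths were 2037 bases for KAR2 and 996 bases for HAC1, both whole numbers of codons (679 and 332). Replicates correlated across genes at r = 0.986 to 0.995 on the log2(FPKM + 1) scale. The first G14_37 library stood apart from its replicates in its most abundant feature, which held 3.91% of the summed FPKM, against 2.05% and 1.99% in the others of the group. The library sizes behind the deposited values were 1.21 to 1.26 times the recovered reads in G14_37, 0.938 to 0.963 times in G14_28 and 0.915 to 0.920 times in Parent_28. The deposited scaling therefore lowered the values of the G14_37 libraries relative to the others, and results at 37 °C are also given with other scalings.

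KAR2 mRNA was highest in the mutant at 37 °C, intermediate in the mutant at 28 °C and lowest in the parent. It was measured at 617, 626 and 661 FPKM in G14_37, at 463, 475 and 446 FPKM in G14_28, and at 281, 289 and 292 FPKM in Parent_28. No group overlapped another. Taken by pairs of groups, this was common in the direction of KAR2. It held for 32.2% of the genes tested in G14_28 vs Parent_28, 35.1% in G14_37 vs G14_28 and 34.9% in G14_37 vs Parent_28. The share for all 3 groups at once was not computed. The means were 635 ± 23.2 FPKM in G14_37, 461 ± 14.6 FPKM in G14_28 and 287 ± 5.87 FPKM in Parent_28 (SD, n = 3 each). By FPKM rank among all features, where rank 1 is the highest, the chaperone stood between 129 and 173 in G14_37, between 362 and 372 in G14_28 and between 634 and 665 in Parent_28. The median feature lay near 66.4 FPKM in G14_37, 66.9 FPKM in G14_28 and 67.1 FPKM in Parent_28.

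HAC1 mRNA had another order, with its highest level in the mutant at 28 °C. It was measured at 198, 219 and 223 FPKM in G14_37, at 394, 389.5 and 395 FPKM in G14_28, and at 239.8, 260.2 and 256 FPKM in Parent_28. On the deposited scale no group overlapped another, and the smallest gap was that between the highest G14_37 library and the lowest Parent_28 library. By pairs of groups, non-overlap in the direction of HAC1 was common too. It held for 32.2% of the genes tested in G14_28 vs Parent_28, 38.4% in G14_37 vs G14_28 and 40.9% in G14_37 vs Parent_28. The means were 214 ± 13.5 FPKM in G14_37, 393 ± 3.06 FPKM in G14_28 and 252 ± 10.7 FPKM in Parent_28 (SD, n = 3 each). The transcription factor ranked between 602 and 739 in G14_37, between 419 and 446 in G14_28 and between 722 and 797 in Parent_28.

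**Figure D1:**
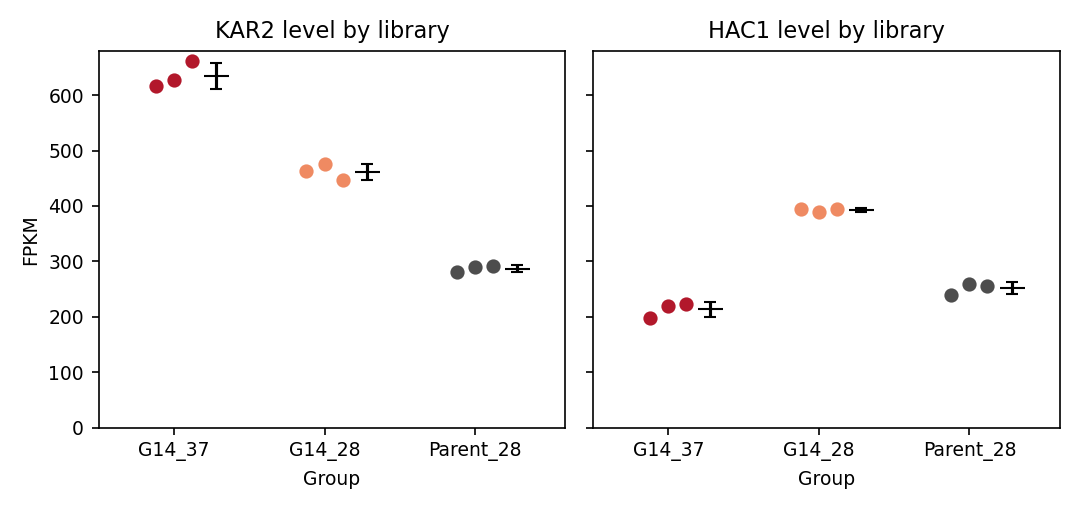
Level of KAR2 (left) and HAC1 (right) in FPKM in the 9 libraries, by group. Each point is 1 library, and the black marks give the mean and SD of 3 libraries. KAR2 averaged 635 FPKM in G14_37, 461 FPKM in G14_28 and 287 FPKM in Parent_28, and HAC1 was highest in G14_28 with a mean of 393 FPKM.

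The values of both genes rest on many reads. KAR2 had 7016 to 23080 reads per library and HAC1 had 2932 to 4867, which gives a counting error of 0.658% to 1.85% of the value. The coefficient of variation between replicates was 0.779% to 6.31%, and it was widest for HAC1 in G14_37. The first replicate of G14_37, the library that stood apart, was the lowest of its group for both genes. In Parent_28 the first replicate was likewise the lowest for both. In G14_28 the third replicate had the lowest KAR2 and the highest HAC1 value. Intervals from counting cover counting error only.

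The comparison of G14_28 with Parent_28 asks what differs between the strains at one temperature. Both KAR2 and HAC1 were higher in the mutant, KAR2 by 1.60-fold and HAC1 by 1.56-fold. The log2 fold change of KAR2 was 0.68 (adjusted p = 2.35e-06 from limma, SE 0.041), and that of HAC1 was 0.64 (adjusted p = 4.11e-06 from limma, SE 0.043). Both were higher in all 3 mutant libraries than in any parent library. Of the 5448 genes tested, 66.3% passed this threshold, 29.6% as higher in G14_28 and 36.7% as lower, and 32.2% were higher without overlap between groups. The balance of directions depended on the scaling, with 1826 genes called higher and 1745 lower when scaled to summed reads, and 2097 higher and 1458 lower when scaled to the summed FPKM, against 1615 higher and 1997 lower with the deposited values. Passing the threshold was therefore common, and the size of the change places both genes better. KAR2 lay above 94.9% of the tested genes and HAC1 above 94.0%, with 278 and 325 genes that had a larger increase. The median log2 fold change of all tested genes was -0.037. Neither gene reached an absolute log2 fold change above 1, a criterion that 3.58% of the genes met together with the adjusted p. For either gene alone, an exact two-sided permutation test gave p = 0.1, the smallest that 3 libraries against 3 allow.

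The comparison of G14_37 with G14_28 asks what differs between the induction temperatures within the mutant. Here the chaperone and the transcription factor went opposite ways. KAR2 was 1.37-fold higher at 37 °C, with a log2 fold change of 0.46 (adjusted p = 2.16e-04 from limma, SE 0.061). HAC1 was lower at 37 °C, at 54.3% of its mean at 28 °C, with a log2 fold change of -0.88 (adjusted p = 5.93e-06 from limma, SE 0.062). All 3 libraries at 37 °C were above those at 28 °C for KAR2 and below them for HAC1. Among the 5459 genes tested, 69.4% passed the threshold, 33.2% as higher and 36.2% as lower at 37 °C. Groups that did not overlap were found for 35.1% of the genes in the higher and 38.4% in the lower direction. KAR2 lay above 82.6% of the tested genes, with 947 genes that had a larger increase. For HAC1, 489 genes had a larger decrease, and 8.96% of the genes lay below it. Neither gene met the criterion of an absolute log2 fold change above 1, which 11.0% of the genes met with the adjusted p. The exact permutation test again gave p = 0.1 for each gene, the smallest possible.

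The direction of both changes with temperature was kept under median centring and under scaling to the summed reads or the summed FPKM, while their size depended on the scaling. When each library was instead scaled to its summed reads, the log2 fold change was 0.84 for KAR2 (adjusted p = 3.07e-06 from limma) and -0.49 for HAC1 (adjusted p = 1.61e-04 from limma). The median of all tested genes then stood at 0.35 instead of -0.025, and 3372 genes were called higher and 915 lower, against 1810 higher and 1977 lower with the deposited values. Relative to the median of all genes, KAR2 was higher by 0.48 and HAC1 stood at -0.85 on the log2 scale with the deposited scaling. The values with summed reads, 0.49 and -0.85, are nearly the same by construction, as a scaling moves all genes of a library alike. Without the first G14_37 library, the log2 fold changes on the deposited scale were 0.48 for KAR2 and -0.83 for HAC1.

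**Figure D2:**
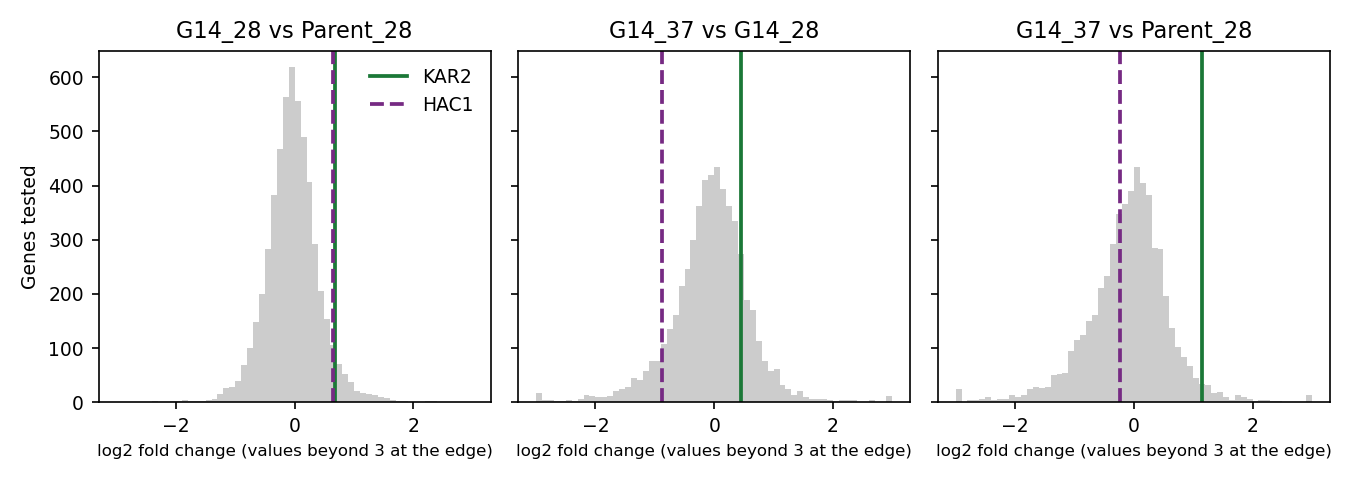
Histograms of the log2 fold changes of all genes tested in the 3 comparisons (horizontal axis, deposited scaling, log2(FPKM + 1)), with the number of genes on the vertical axis. Lines mark KAR2 (solid) and HAC1 (dashed), which lie next to each other in G14_28 vs Parent_28 at 0.68 and 0.64, and on opposite sides of 0 in G14_37 vs G14_28 at 0.46 and -0.88.

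The comparison of G14_37 with Parent_28 differs in strain and temperature at once, which cannot be told apart in it, and it shares its libraries with the comparisons above. On the deposited scale KAR2 was 2.21-fold higher in G14_37, with a log2 fold change of 1.14 (adjusted p = 8.10e-07 from limma, SE 0.056). The size of this increase depended on the scaling. The log2 fold change of KAR2 was 1.57 when scaled to summed reads and 1.66 when scaled to the summed FPKM. In this comparison KAR2 also met the fold-change criterion, as did 12.3% of the 5451 genes tested on the deposited scale. Genes that met it were 209 as higher and 462 as lower in G14_37. They were 631 as higher and 202 as lower when scaled to summed reads, and 801 and 179 when scaled to the summed FPKM. On the deposited scale KAR2 lay above 97.0% of the genes, with 163 genes that had a larger increase. HAC1 was lower in G14_37 on the deposited scale, at 84.8% of its mean in Parent_28, with a log2 fold change of -0.24 (adjusted p = 0.00994 from limma, SE 0.065). The adjusted p alone was met by 72.3% of the genes, 33.1% as higher and 39.1% as lower. This balance depended on the scaling, with 3484 genes called higher and 986 lower when scaled to summed reads, and 3689 higher and 831 lower when scaled to the summed FPKM, against 1805 higher and 2134 lower with the deposited values. On the deposited scale neither gene overlapped between these groups, as was the case for 34.9% of the genes in the higher and 40.9% in the lower direction. For HAC1, 3484 genes had a higher and 1966 a lower fold change, so that it lay in the middle part of the distribution.

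The difference in HAC1 between G14_37 and Parent_28 turned with the scaling. Scaled to the summed reads, HAC1 was higher in G14_37, with a log2 fold change of 0.19 (adjusted p = 0.0332 from limma), and scaled to the summed FPKM, the fold change was 0.28 (adjusted p = 0.0137 from limma). As a share of the summed FPKM, HAC1 held 0.0251% to 0.0310% in G14_37, 0.0389% to 0.0412% in G14_28 and 0.0225% to 0.0247% in Parent_28. On that scale the G14_37 libraries lay above the Parent_28 libraries, and the G14_28 libraries stayed above both. Relative to the median of all genes, HAC1 stood at -0.21 on the log2 scale in G14_37 vs Parent_28 with the deposited scaling. The values of -0.20 with summed reads and -0.20 with summed FPKM are not separate results, as a scaling moves all genes of a library alike. The order of HAC1 between these groups is thus not fixed by the data, whereas G14_28 had the highest level under every scaling tried. For KAR2 the share of the summed FPKM was 0.0780% to 0.0911% in G14_37, 0.0461% to 0.0474% in G14_28 and 0.0263% to 0.0275% in Parent_28, in the same order as the FPKM.

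**Figure D3:**
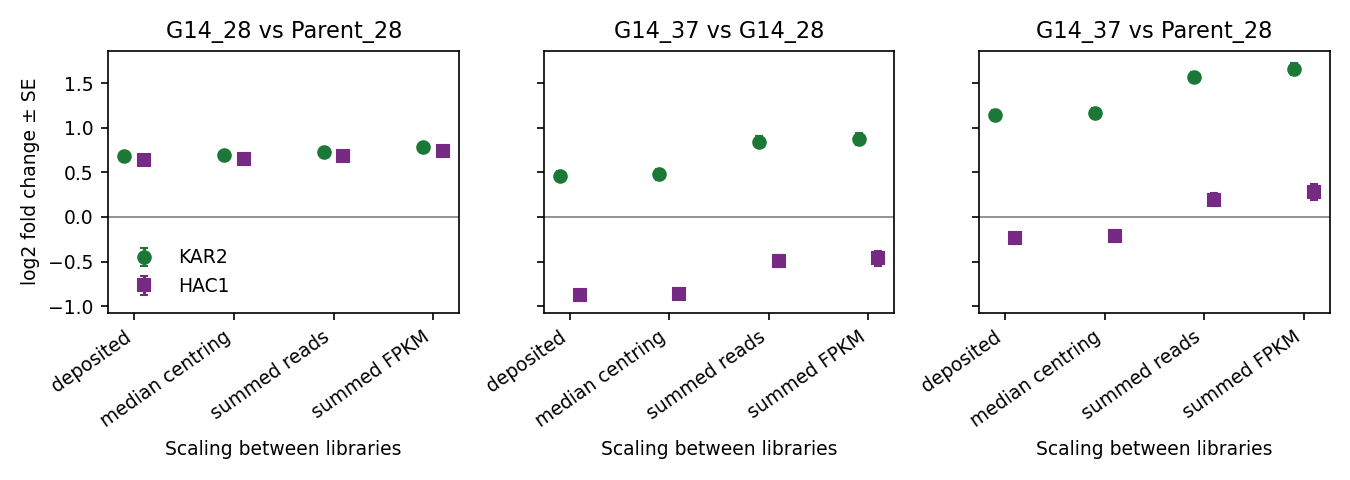
Log2 fold change (vertical axis, with its standard error) of KAR2 (circles) and HAC1 (squares) in the 3 comparisons, for 4 scalings between libraries on the horizontal axis. In G14_28 vs Parent_28, KAR2 stood at 0.68 with the deposited scaling and at 0.78 with summed FPKM, and HAC1 at 0.64 and 0.74. HAC1 in G14_37 vs Parent_28 stood at -0.24 with the deposited scaling and at 0.19 with summed reads.

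The ratio of KAR2 to HAC1 within a library does not depend on the scaling between libraries, and it compares levels per gene length. It was 3.11, 2.86 and 2.96 in G14_37, 1.17, 1.22 and 1.13 in G14_28, and 1.17, 1.11 and 1.14 in Parent_28. The chaperone mRNA was thus close to 3 times as abundant as that of the transcription factor at 37 °C, and only a little more abundant at 28 °C in either strain.

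Between the strains at 28 °C, the ranges of the ratio overlapped. The mean was 1.17 ± 0.046 in G14_28 and 1.14 ± 0.029 in Parent_28 (SD, n = 3 each). The difference of the log2 ratio was 0.042 (standard error 0.039), the single pairs of libraries ranged from -0.052 to 0.13, and a two-sided exact permutation test gave p = 0.4. As a fold, the pairs ranged from 0.965 to 1.10, and the test does not show that the ratio was the same in both strains.

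Between the temperatures, the ratio was 2.53-fold higher in G14_37 than in G14_28. The mean was 2.98 ± 0.13 in G14_37 and 1.17 ± 0.046 in G14_28 (SD, n = 3 each). The difference of the log2 ratio was 1.34 (standard error 0.048), and single pairs of libraries ranged from 1.23 to 1.46, with no overlap between groups. The two-sided exact permutation test gave p = 0.1, the smallest that 3 libraries against 3 allow. Against Parent_28, the ratio in G14_37 was 2.61-fold higher, with a difference of the log2 ratio of 1.38 (standard error 0.042) and the same smallest p of 0.1 in the exact permutation test. Over the 3 comparisons of the ratio, no p could pass 0.05 in this design, with or without an adjustment. A ratio shows unequal change of the 2 genes and not which of them moved.

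**Figure D4:**
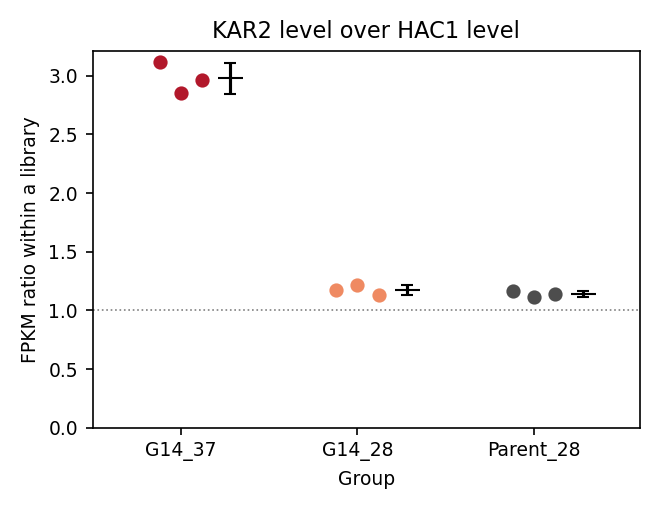
Ratio of the KAR2 level to the HAC1 level (FPKM over FPKM, vertical axis) in each of the 9 libraries, by group, with the mean and SD of 3 libraries in black and a dotted line at 1. The G14_37 libraries sit between 2.86 and 3.11, and the ranges of G14_28 (1.13 to 1.22) and Parent_28 (1.11 to 1.17) overlap.

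In the order of locus tags, the 10 tested tags on either side of each gene were taken, an order not checked against genome coordinates. In G14_28 vs Parent_28, the 20 neighbours of KAR2 had a median log2 fold change of -0.011 (from -0.92 to 0.53), and 7 were called higher and 7 lower. Those of HAC1 had a median of 0.019 (from -0.73 to 0.52), with 6 called higher and 7 lower. These counts are near the share over all tested genes, of which 29.6% were called higher and 36.7% lower. KAR2 and HAC1 each had a larger increase than all of their 20 neighbours. Among all tested genes they lay above 94.9% and 94.0%, so few neighbours above them would be found in any case. In G14_37 vs G14_28, the neighbours of KAR2 had a median of -0.100 and 2 of them had a larger increase than KAR2, which lay above 82.6% of all tested genes. The neighbours of HAC1 had a median of -0.0024, and 1 of them had a larger decrease than HAC1, as did 8.96% of all tested genes.

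For each gene, the tag with the most similar pattern over the 9 libraries was looked for among 5370 other features with a mean of at least 5 FPKM, by the Pearson correlation of log2(FPKM + 1). For KAR2 this was CHR3-1105 on chromosome 3, with r = 0.997. It was measured at 118, 114 and 121 FPKM in G14_37, at 90.9, 95.3 and 92.2 FPKM in G14_28, and at 59.3, 60.4 and 61.2 FPKM in Parent_28. Its log2 fold changes were 0.61 in G14_28 vs Parent_28 and 0.34 in G14_37 vs G14_28, which are given without a test, as the tag was picked for its likeness to KAR2 in these same libraries.

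For HAC1 the most similar tag was CHR1-0221 on chromosome 1, with r = 0.995. It was measured at 49.5, 56.9 and 56.1 FPKM in G14_37, at 101.6, 98.1 and 96.5 FPKM in G14_28, and at 63.7, 63.8 and 63.8 FPKM in Parent_28. Its log2 fold changes were 0.62 in G14_28 vs Parent_28 and -0.86 in G14_37 vs G14_28, which likewise follow from the choice of the tag and are a description. Correlations above 0.95 were found with 180 features for KAR2 and 147 for HAC1. These correlations mostly follow the 3 group means, the points share their libraries and scaling, and they are given as a description. No gene name is paired with either tag in the files.

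**Figure D5:**
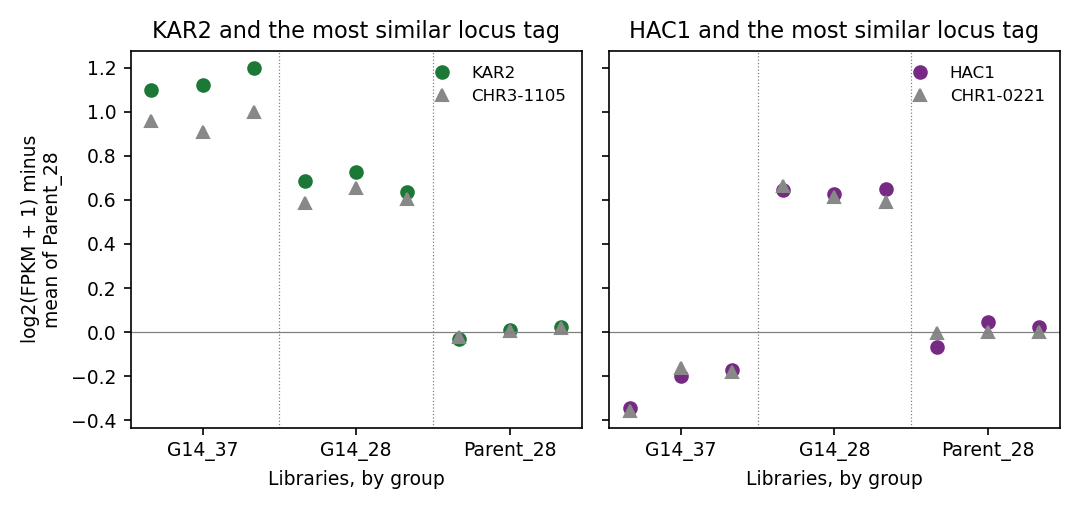
Log2(FPKM + 1) of KAR2 with CHR3-1105 (left) and of HAC1 with CHR1-0221 (right) in the 9 libraries, each gene relative to its mean in Parent_28 (vertical axis). Circles stand for KAR2 or HAC1 and triangles for the similar tag, with r = 0.997 for the pair on the left and r = 0.995 for the pair on the right.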

How the data were processed

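The authors deposited one table of normalized values per gene and library, and its unit is not named. The deposited values were taken as FPKM from their form. The submitters' processing notes name CASAVA, HISAT2 2.0.5 and featureCounts 1.5.0-p3. The genome build, the annotation and the use of strand in counting are not given in the sources used here. Since a value is a whole number of reads times a step set by its gene and library, read numbers and lengths of genes were derived from these steps, a procedure tested on simulated data.

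Genes with a mean of at least 1 FPKM in one of the compared groups were tested with limma 3.58.1 in R 4.3.3 (functions lmFit and eBayes, trend option on), applied to log2(FPKM + 1) of the libraries of those groups. The Benjamini-Hochberg adjustment was made over all tested genes, and an adjusted p under 0.05 was called. Fold changes on this scale are slightly understated. Ratios were tested by exact permutation in Python 3.11.15 with scipy 1.17.1. The named genes are KAR2, HAC1 and the tag most similar to each. A list of ER folding genes could not be used, as their tags are not paired with names. The members and lists were chosen with earlier results of these data known.

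The chi-square of the reads of any replicate pair was at least 3.85 per degree of freedom, above sampling noise, and each library was counted. It was 32.2 and 29.4 for the pairs with the first G14_37 library, and 3.85 to 8.52 for all other pairs. Alternatives were a pseudocount of 0.1, no filter, median centring, scaling to summed reads, all 3 groups in one fit, a replicate block, no trend, limma-voom on recovered reads and each replicate left out. Scaling to the summed FPKM was chosen after seeing the data.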

Additional observations from a re-analysis of the deposited data

How the results depend on the processing

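For the 6 fold changes of KAR2 and HAC1, 88 of 90 alternatives kept the direction and the side of the threshold. The exceptions were HAC1 in G14_37 vs Parent_28, with 0.19 when scaled to summed reads and 0.28 when scaled to the summed FPKM, in place of -0.24. Not all alternatives could move a fold change. No filter, all 3 groups in one fit, a replicate block and no trend leave it the same by construction, and limma-voom kept the deposited library sizes. The count is therefore no measure of how far the results depend on scaling. For HAC1 in G14_37 vs Parent_28, the adjusted p from limma was 0.00289 to 0.0463 over the alternatives with a negative fold change. For the positive fold changes it was 0.0332 with summed reads and 0.0137 with summed FPKM. With each replicate left out, the HAC1 fold change was -0.27 to -0.19 on the deposited scale. KAR2 in G14_37 vs G14_28 ranged from 0.43 to 0.87 over all alternatives, and HAC1 from -0.91 to -0.46. In G14_37 vs Parent_28, KAR2 ranged from 1.11 to 1.66. In G14_28 vs Parent_28, KAR2 ranged from 0.66 to 0.78 and HAC1 from 0.61 to 0.74. The log2 ratio of KAR2 to HAC1 stayed from 1.31 to 1.37 for G14_37 vs G14_28 and from 0.014 to 0.070 for G14_28 vs Parent_28 with each replicate left out.

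With an absolute log2 fold change above 1 as well, the called genes numbered 195 in place of 3612 for G14_28 vs Parent_28, 601 in place of 3787 for G14_37 vs G14_28, and 671 in place of 3939 for G14_37 vs Parent_28, as that rule is stricter by construction.

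The labels use the same replicate numbers in each group and state no pairing. Deviations of same-numbered libraries correlated at -0.18 to 0.24, and not every pair exceeded 0.1, so the numbers were not taken to pair the samples. With a replicate block, 3569, 3845 and 3924 genes were called in the 3 comparisons in this order, and no call of KAR2 or HAC1 changed. Depth did not limit either gene, which had at least 2932 reads in each library.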
